A study of Mus musculus with 10 samples.

Results

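The genes described here are the 120 neighbours of Mir144 on mouse chromosome 11, the place of the miR-144/451 microRNA cluster that is deleted in miR-144/451-/- and Nrf2/miR-144/451-/- mice. They are the 120 genes whose start lies nearest to that of Mir144 in the GENCODE M21 annotation and that had at least 100 counts summed over the 10 libraries, out of 53465 annotated identifiers in the deposited count table. Start here means the lower coordinate of a gene on either strand, so for minus-strand genes such as Eral1 it is where the transcript ends. Mir144 itself, Mnt and symbols beginning with Rpl, Rps, Mrp, Psm or Ube2 were left out by the rule, which uses position and total count and no difference between groups. The question put to them is whether genes around a deleted allele differ between genotypes more often than genes elsewhere, as they could if a segment of another strain had travelled with the allele. The count tables hold no sequence variants, so such a segment was not itself observed or tested.

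Messenger RNA was sequenced from erythroblasts, the nucleated precursors of red blood cells, taken from mouse spleens 11 days after 5-FU, a drug that kills dividing blood precursors and sets off a burst of red cell production in the spleen. The 4 groups were miR-144/451-/- (n = 2), Nrf2/miR-144/451-/- (n = 3), Nrf2-/- (n = 3) and wild type (n = 2). All mice are labelled C57BL/6, and the labels do not say how the alleles were made, whether littermates were used or which mouse gave which library. The p-values therefore measure the spread between these libraries. The 5 libraries of the first 2 genotypes are called cluster-null and the other 5 cluster-intact.

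The miR-144/451 cluster is switched on by GATA1 during erythroid maturation, and its microRNAs repress messages that carry matches to their seeds. Nrf2, the product of Nfe2l2 on chromosome 2, controls genes of the antioxidant response. Genes close to a targeted allele are inherited together with it, so a mouse bred to carry the allele also carries the stretch of chromosome around it.

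The mature microRNAs of the deleted cluster are printed first, with the seed (bases 2 to 8) in capitals. The seeds of miR-144-3p and miR-451a define the sites searched in the neighbours, and that of miR-144-5p was not searched. The 3 sequences are from RefSeq on GRCm38.p6, where all 3 lie on the plus strand of chromosome 11.
miR-144-3p: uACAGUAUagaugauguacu
miR-144-5p: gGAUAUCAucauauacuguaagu
miR-451a: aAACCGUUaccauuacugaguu
The 3 seeds differ from each other. Mir451a begins 99 bases after the end of Mir144, and Eral1, on the opposite strand, lies 134 bases beyond Mir451a. Flot2 ends 12570 bases before Mir144 on its other side.

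Mir144 had 0 counts in each of the 2 miR-144/451-/- and each of the 3 Nrf2/miR-144/451-/- libraries, against 9, 13 and 16 counts in Nrf2-/- and 12 and 17 in wild type. The null and intact libraries did not overlap, in the direction of their labels. With a floor of 3 counts per library, miR-144/451-/- libraries had a level at least 5.36-fold lower than wild type. For Nrf2/miR-144/451-/- against Nrf2-/- the bound was at least 4.21-fold lower. Mir451a had 0 counts in all 10 libraries, cluster-intact ones included, so these libraries of long RNA say nothing of its level. Floors of this kind cover counting error only.

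The neighbours lay evenly about the cluster, 60 at lower and 60 at higher coordinates, out to 5.11 Mb and 5.22 Mb. Of them 110 are annotated as protein coding and 10 are not, and 46 overlap another annotated gene, whose reads cannot be told apart from theirs because no strand setting is given in the sources used here. Their counts summed over the libraries ranged from 100 to 84793 with a median of 2346, and all 120 passed the filter on low counts. The last genes inside the window were Gm23444, Slfn14 and AA465934, at 5.198, 5.202 and 5.219 Mb. Genes just outside it included Ap2b1 at 5.226 Mb and Zzef1 at 5.277 Mb.

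On the deposited FPKM scale, which divides by gene length, Slfn14 was the most abundant neighbour. Its mean level was 134 FPKM in cluster-null and 191 FPKM in cluster-intact libraries. This member of the Schlafen family is an endoribonuclease linked to platelet and red cell formation.

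The 10 libraries held 13087827 to 15131036 counts. Counts of Xist and of Y-linked genes marked both wild-type libraries and Nrf2/miR-144/451-/- replicate 3 as female and the other 7 as male, so miR-144/451-/- against wild type, and Nrf2-/- against wild type, were also male against female. Within a genotype, sex varied only in Nrf2/miR-144/451-/-, so a term for sex in any fit rests on replicate 3 of that group. All 10 erythroblast markers were detected, and so were markers of other spleen cells. Of the erythroblast markers, 4 fell and 0 rose in Nrf2/miR-144/451-/- against Nrf2-/-, with a median log2 fold change of -0.35, and 1 fell in miR-144/451-/- against wild type, with a median of -0.42. The summed level of 11 B cell markers was 723 to 981 CPM in miR-144/451-/- against 1286 to 1639 CPM in wild type, and 357 to 787 CPM in Nrf2/miR-144/451-/- against 978 to 1121 CPM in Nrf2-/-. With Nrf2 absent 10 of the 11 fell, and with Nrf2 present 0 of the 11 passed the threshold. In bulk RNA, fewer cells of a type and less RNA per cell cannot be told apart.

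The neighbours of Mir144 passed the threshold somewhat more often than genes in general when the cluster was lost. With Nrf2 absent the share was highest within 0.78 Mb of the deletion, while with Nrf2 present it was as high in the outermost 30 as in the nearest 30. The shares are given side by side as descriptions, with no test of their difference. The neighbours had at least 100 summed counts, a floor not set for all tested genes, so the shares are not matched on counts. Levels are given as CPM normalised with TMM factors, which scale each library's total. Changes are log2 fold changes ± standard error from edgeR's quasi-likelihood test, and a gene is said to rise or fall at a Benjamini-Hochberg adjusted p under 0.05 over the 14110 genes tested.

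With Nrf2 present, 10 of the 120 neighbours (8.33%) passed the threshold in miR-144/451-/- against wild type, 6 higher and 4 lower, beside 4.63% of all tested genes, 2.4% higher and 2.23% lower. Their median log2 fold change was 0.01, against 0.02 over all tested genes. Leaving out one library of either group left 2 neighbours without miR-144/451-/- replicate 1, 4 without replicate 3, 3 without wild-type replicate 1 and 2 without replicate 3. The share of all genes fell with them, to between 0.283% and 2.35%. A fit with a term for sex called 0 neighbours and 1 gene in all.

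With Nrf2 absent, 42 neighbours (35.0%) passed in Nrf2/miR-144/451-/- against Nrf2-/-, 26 higher and 16 lower, beside 27.3% of all tested genes, 14.4% higher and 12.9% lower. The median log2 fold change was 0.08 over the neighbours and 0.02 over all genes. This comparison shares no library with the one above. All 42 had the same sign in miR-144/451-/- against wild type, as did 96.9% of all genes that this comparison called. Of the 120, 18 passed with a change of at least 2-fold, as did 11.6% of all genes.

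Averaged over both Nrf2 states, cluster loss raised 26 and lowered 20 of the 120 neighbours (38.3%), beside 29.2% of all tested genes, 15% higher and 14.2% lower. In 31 neighbours (25.8%) the 5 cluster-null libraries lay wholly above or wholly below the 5 cluster-intact ones, beside 20.5% of all genes. Of these 31, 19 were higher and 12 lower, beside 11.5% and 9.02% of all genes. The neighbours' share was thus above that of all genes in each of these counts. The 120 genes next outward by the same rule also had 31 so separated (25.8%), 15 higher and 16 lower.

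**Figure D1:**
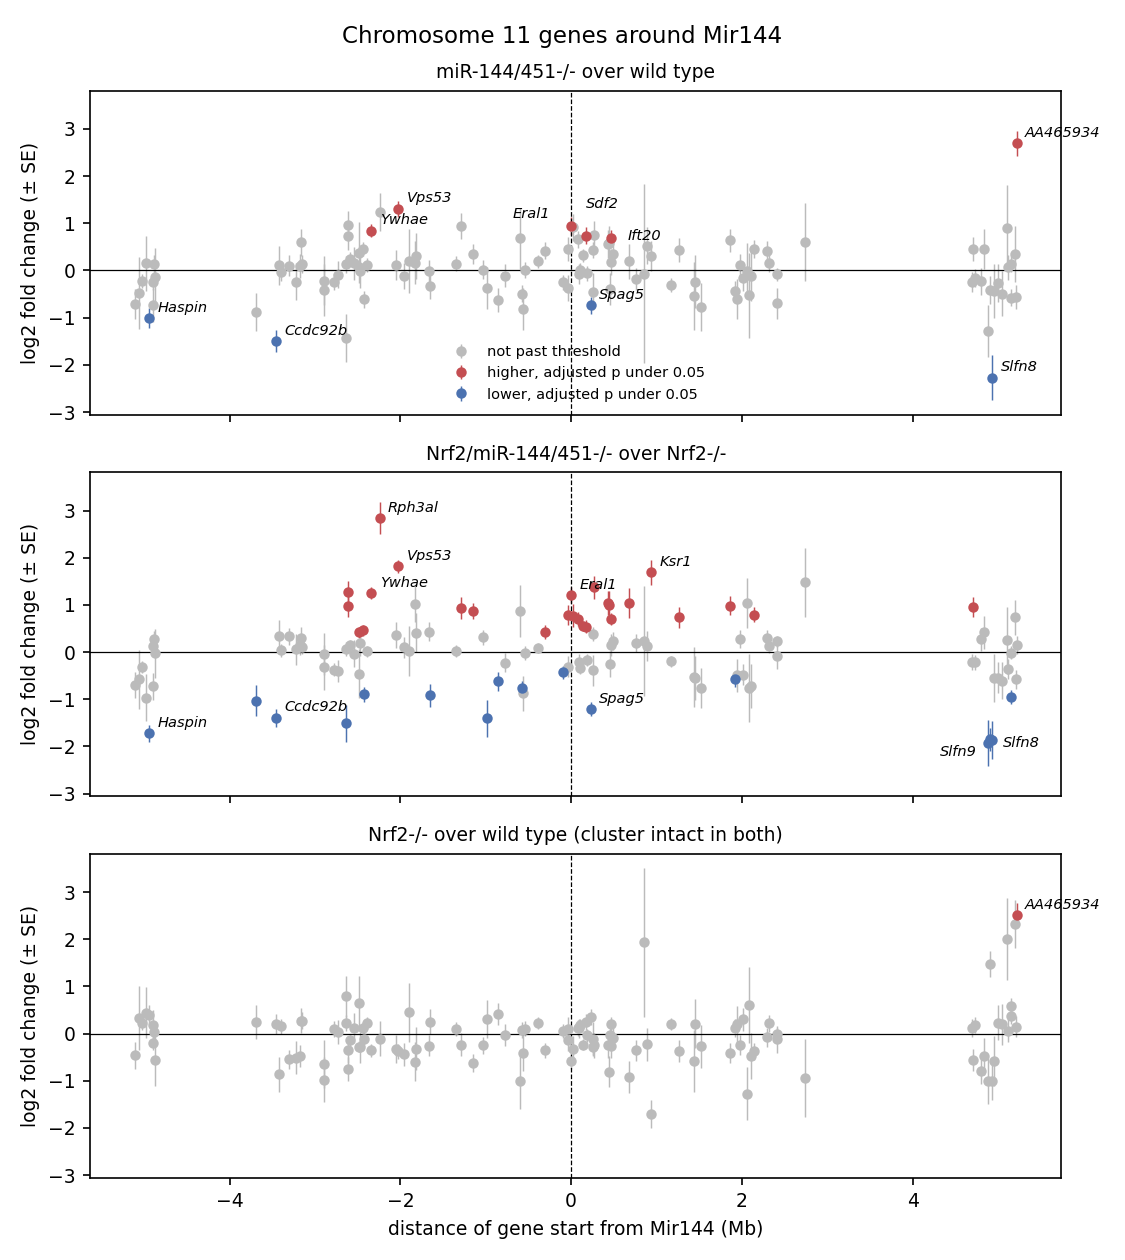
Log2 fold change (y axis, ± SE) of each of the 120 neighbours by the distance of its start from Mir144 in Mb (x axis), for miR-144/451-/- over wild type (n = 2 and 2), Nrf2/miR-144/451-/- over Nrf2-/- (n = 3 and 3) and Nrf2-/- over wild type (n = 3 and 2). Red points rose and blue points fell at an adjusted p under 0.05, grey points did not pass. In the middle panel 12 of the 15 coloured points among the nearest 30 genes are red, and in the lowest panel AA465934 at the right edge is the single coloured point.

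With Nrf2 absent the share called declined with distance. Of the 30 nearest neighbours, within 0.78 Mb of Mir144, 15 rose or fell in Nrf2/miR-144/451-/- against Nrf2-/-. There 12 were higher and 3 lower. Of the next 30, out to 2.11 Mb, 10 passed, 6 higher and 4 lower. The third group of 30, out to 3.40 Mb, had 9, of which 7 were higher. The outermost 30 had 8, of which 1 was higher and 7 lower. The shares were thus 50%, 33.3%, 30% and 26.7% with distance, the last of them below the 27.3% of all genes. Averaged over both Nrf2 states the 4 bands had 16, 10, 8 and 12 genes called, so the outermost band came next to the nearest, with 2 genes higher and 10 lower.

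Most of the nearest 30 that passed were higher. Their median log2 fold change in that comparison was 0.22, against -0.45 in the outermost 30 and 0.02 over all genes. Leaving out Nrf2-/- replicate 3 lowered their count to 8, of which 6 were higher. In that refit the count over all 120 neighbours also fell, from 42 to 28, and the share of all genes is not given here. Leaving out the other single libraries gave 11 to 15 of the nearest 30. In miR-144/451-/- against wild type 4 of the 30 passed, 3 higher and 1 lower, and so did 4 of the outermost 30, 1 higher and 3 lower. Both shares were 13.3%, beside 4.63% of all genes, 2.4% higher and 2.23% lower. Leaving out a library gave 0 to 5 of the nearest 30, with 0 when any miR-144/451-/- or wild-type library was absent, 1 without Nrf2-/- replicate 1 or replicate 2 and 2 without Nrf2/miR-144/451-/- replicate 1.

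Beyond the window some shares stayed above that of all genes. The 120 genes next outward, to 8.86 Mb, had 32.5% called in Nrf2/miR-144/451-/- against Nrf2-/-, 20 higher and 19 lower. That share lay between the 33.3% and 30% of the middle bands inside the window. The 773 chromosome 11 genes farther out had 30.1%. Around Nfe2l2 on chromosome 2, the 120 genes chosen by the same rule had 28.3%. Chromosome 11 as a whole had 29.5% in this comparison, rank 3 from the top among the chromosomes. Their shares ran from 22.5% on chromosome 6 to 30.6% on chromosome 14. In miR-144/451-/- against wild type chromosome 11 had 6.7%, rank 2 from the top, with a range of 2.6% on chromosome 13 to 7.0% on chromosome 14. In that comparison the next 120 genes had 6.67% called, as had the 120 nearest Nfe2l2. The 773 farther out had 7.24%, beside 8.33% of the neighbours. Between 10 and 20 Mb away at lower coordinates the share was 11.4%. Averaged over both Nrf2 states, genes 20 to 30 Mb away at higher coordinates had 40.4% called, more than the 38.3% of the neighbours. The neighbours as a whole were thus not the stretch of chromosome 11 with the highest share in miR-144/451-/- against wild type or averaged. In Nrf2/miR-144/451-/- against Nrf2-/- their 35.0% was above every distance band outside the window. The highest of those bands, 20 to 30 Mb away at higher coordinates, had 32.7%. The bands in Mb hold all tested genes, without the rule's count floor and left-out symbols. Counted that way, genes within 5.3 Mb of Mir144 had 35.2% called at lower and 31.8% at higher coordinates. Only the lower-coordinate side was then above every band outside.

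**Figure D2:**
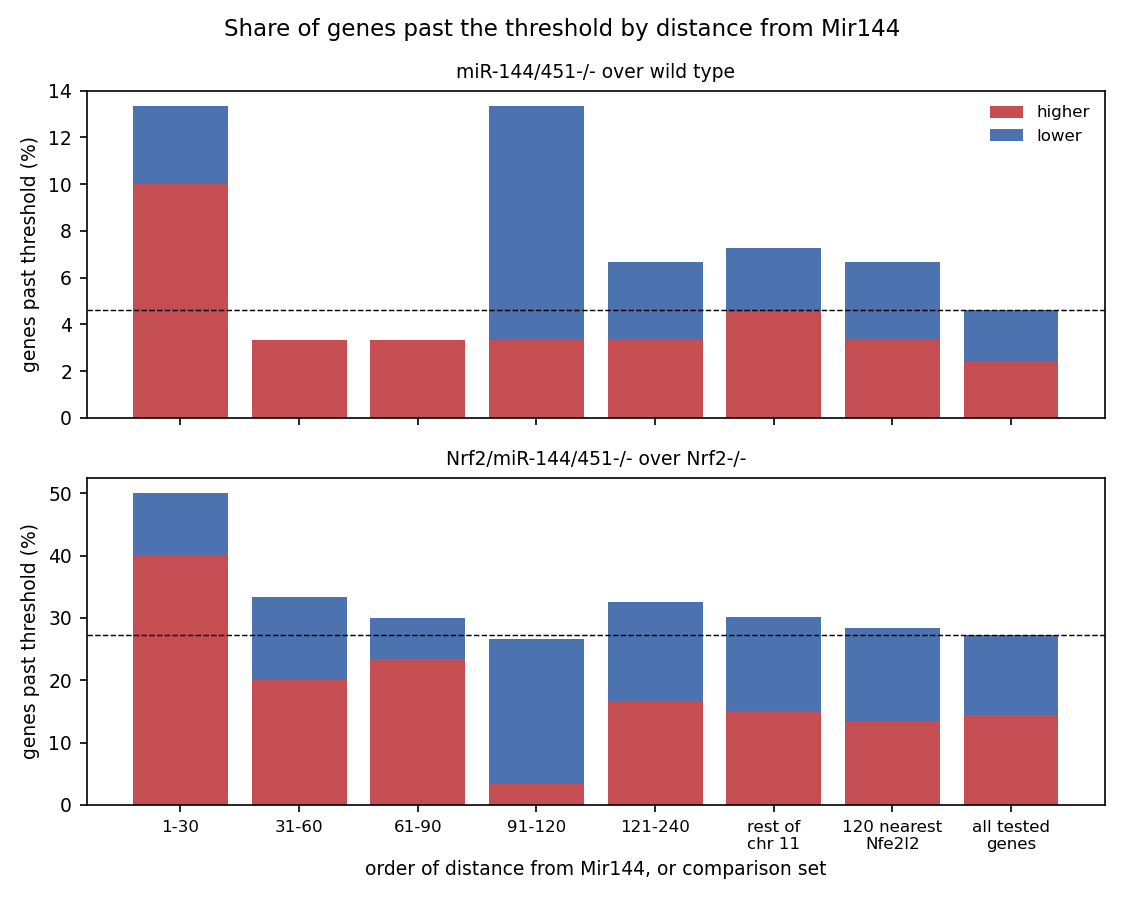
Percent of genes past the threshold (y axis, stacked bars, red higher and blue lower) in 4 bands of 30 neighbours by distance from Mir144, in the next 120 genes, in the rest of chromosome 11, among the 120 genes nearest Nfe2l2 and over all tested genes (dashed line). The y axes of the 2 panels differ in scale. In Nrf2/miR-144/451-/- over Nrf2-/- the nearest band reaches 50% against 27.3% of all genes, and its bar is mostly red, while the bar of the outermost band, at 26.7%, is mostly blue.

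Of the nearest 30, 16 passed in the averaged comparison. Those that rose were Eral1, Fam222b, Flot2, Traf4, Supt6, Sdf2, Pigs, Unc119, Myo18a, Tmem199, Poldip2 and Ift20, and those that fell were Phf12, Spag5, Trp53i13 and Git1. Risers and fallers lay between each other along the chromosome. On the lower-coordinate side, Flot2, which encodes a scaffold of membrane rafts, rose by a log2 fold change of 0.62 ± 0.16 (averaged, edgeR adjusted p = 0.0146), a call lost without wild-type replicate 1. Dhrs13, a dehydrogenase of the short-chain family 40.7 kb away, did not pass, at -0.34 ± 0.18. Phf12, a subunit of Sin3 corepressor complexes, had -0.34 ± 0.11 (adjusted p = 0.0319), and that call was lost without scaling factors, without the filter on low counts, with a term for sex and without 6 of the 10 single libraries. Myo18a, an unconventional myosin, rose by 0.42 ± 0.11 (adjusted p = 0.0156), a call lost with a term for sex or without wild-type replicate 3. Nufip2, an RNA-binding protein, did not pass, at 0.14 ± 0.09.

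On the higher-coordinate side the order was Eral1, Fam222b, Traf4, Nek8 and Tlcd1. Fam222b rose by 0.84 ± 0.19 on the log2 scale, averaged (adjusted p = 0.00745). Traf4, an adaptor of the TNF receptor-associated family, rose by 0.68 ± 0.12 (adjusted p = 0.00177). The kinase gene Nek8 and the membrane protein gene Tlcd1 did not pass, at -0.14 ± 0.14 and -0.16 ± 0.10. Of the 5 closest genes on each side 5 in all thus rose, 1 fell and 4 did not pass.

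Of the 120 neighbours, 9 passed the threshold with the same sign in both comparisons of cluster loss, 7.5% beside 4.32% of all genes. The 120 genes next outward and the 120 nearest Nfe2l2, chosen by the same rule, each had 8 (6.67%), 4 higher and 4 lower. Of the 9 neighbours, 5 rose (2.23% of all genes did) and 4 fell (2.08%). They were Eral1, Sdf2, Spag5, Ift20, Vps53, Ywhae, Ccdc92b, Slfn8 and Haspin, from 0.4 kb to 4.94 Mb from Mir144. In each of them the 5 cluster-null libraries lay wholly on one side of the 5 cluster-intact ones. Their calls in miR-144/451-/- against wild type were all lost with a term for sex, where adjusted p ran from 0.148 to 0.663 with unchanged signs. In that fit the log2 fold change of Eral1 was 1.24 and that of Vps53 1.17, while that of Slfn8 shrank to -0.66. Its term for sex rests on Nrf2/miR-144/451-/- replicate 3 alone, and the part of sex in these differences was not tested. In Nrf2/miR-144/451-/- against Nrf2-/- the calls of 8 held with RLE or no scaling factors, DESeq2, a replicate block, a term for sex and each library left out, and that of Sdf2 was lost with a term for sex (adjusted p = 0.0639) and without Nrf2-/- replicate 3 (adjusted p = 0.0575). The count of 9 fell to 1 without miR-144/451-/- replicate 1, 3 without replicate 3, 2 without wild-type replicate 1 and 1 without wild-type replicate 3. None of the 9 kept its call in miR-144/451-/- against wild type without wild-type replicate 3, so the 1 counted there was another neighbour. Vps53 was the one of the 9 that kept it without miR-144/451-/- replicate 1.

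Eral1, the gene nearest the deletion, encodes a GTPase that binds the RNA of the small mitochondrial ribosomal subunit. It had 25.3 and 25.9 CPM in miR-144/451-/- libraries, against 13.9 and 12.7 CPM in wild type. It had 19.6, 18.9 and 23.6 CPM in Nrf2/miR-144/451-/- libraries, against 9.02, 10 and 7.80 CPM in Nrf2-/-. The cluster-null libraries were all higher. The log2 fold change was 0.94 ± 0.20 with Nrf2 present (edgeR adjusted p = 0.0225) and 1.21 ± 0.16 with Nrf2 absent (adjusted p = 0.000486).

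Sdf2 encodes a protein of the endoplasmic reticulum. Its level was 22.5 and 22.2 CPM in miR-144/451-/-, against 13.4 and 13.4 CPM in wild type. It was 22.6, 20.7 and 25.8 CPM in Nrf2/miR-144/451-/-, against 16.7, 16.0 and 14.9 CPM in Nrf2-/-. The groups did not overlap in either pair. The log2 fold changes were 0.74 ± 0.18 (adjusted p = 0.0382) and 0.54 ± 0.14 (adjusted p = 0.0177). Sdf2 overlaps Supt6, and 14% of its 31-base words occur in another gene.

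Spag5, or astrin, a protein of the mitotic spindle, fell. It had 234 and 240 CPM in miR-144/451-/-, against 387 and 403 CPM in wild type. It had 264, 179 and 210 CPM in Nrf2/miR-144/451-/-, against 514, 478 and 518 CPM in Nrf2-/-. Every cluster-null library was below every cluster-intact one. Its log2 fold changes were -0.74 ± 0.18 (adjusted p = 0.0401) and -1.21 ± 0.15 (adjusted p = 0.000261).

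Ift20, a subunit of the intraflagellar transport machinery that also sits at the Golgi, rose. Its level was 40.4 and 38.3 CPM in miR-144/451-/-, against 21.7 and 27.4 CPM in wild type. It was 48.0, 46.0 and 44.4 CPM in Nrf2/miR-144/451-/-, against 29.1, 30.7 and 25.2 CPM in Nrf2-/-. The groups were apart in both pairs. On the log2 scale the changes were 0.68 ± 0.16 (adjusted p = 0.0398) and 0.70 ± 0.13 (adjusted p = 0.00327).

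Vps53, a subunit of the tethering complexes that receive vesicles returning from endosomes, had the smallest p among the neighbours in the averaged comparison. It lies 2.03 Mb from Mir144 and overlaps Glod4. It had 31.1 and 29.4 CPM in miR-144/451-/-, against 12.3 and 12.1 CPM in wild type. It had 35.3, 33.1 and 31.1 CPM in Nrf2/miR-144/451-/-, against 10.3, 8.65 and 9.26 CPM in Nrf2-/-. Every cluster-null value was thus above every cluster-intact one. Fitted log2 fold changes were 1.31 ± 0.17 (adjusted p = 0.00377) and 1.82 ± 0.14 (adjusted p = 4.2e-05).

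Ywhae encodes 14-3-3 epsilon, which binds phosphorylated partners in many signalling pathways. It was among the more abundant neighbours, with a mean of 97.5 FPKM in cluster-null against 44.7 FPKM in cluster-intact libraries. It had 239 and 240 CPM in miR-144/451-/-, against 138 and 129 CPM in wild type. It had 246, 221 and 280 CPM in Nrf2/miR-144/451-/-, against 107, 105 and 102 CPM in Nrf2-/-. No cluster-null library overlapped a cluster-intact one. The log2 fold changes were 0.84 ± 0.14 (adjusted p = 0.00994) and 1.25 ± 0.12 (adjusted p = 8.1e-05).

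Ccdc92b, a coiled-coil gene 3.45 Mb away, had 52.8 and 53.6 CPM in miR-144/451-/-, against 129 and 172 CPM in wild type. Its level was 74.9, 68.1 and 55.2 CPM in Nrf2/miR-144/451-/-, against 169, 133 and 218 CPM in Nrf2-/-. The spread was wider among the cluster-intact libraries, and the groups did not overlap. Its log2 fold changes were -1.50 ± 0.24 (adjusted p = 0.0076) and -1.39 ± 0.19 (adjusted p = 0.00055).

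Haspin, a kinase that marks histone H3 in mitosis, lies 4.94 Mb away within Itgae. It had 18.0 and 22.4 CPM in miR-144/451-/-, against 39.4 and 42.0 CPM in wild type. It had 18.7, 13.9 and 16.4 CPM in Nrf2/miR-144/451-/-, against 56.5, 42.0 and 63.0 CPM in Nrf2-/-. All cluster-null values were lower. On the log2 scale the changes were -1.01 ± 0.22 (adjusted p = 0.0258) and -1.72 ± 0.18 (adjusted p = 0.000123).

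Slfn8, a Schlafen gene 4.93 Mb away at higher coordinates, had 2.33 and 2.52 CPM in miR-144/451-/-, against 11.2 and 12.3 CPM in wild type. It had 0.892, 0.988 and 2.88 CPM in Nrf2/miR-144/451-/-, against 5.18, 5.49 and 6.89 CPM in Nrf2-/-. The groups did not overlap, at levels low enough that each cluster-null library rests on few reads. Fitted log2 fold changes were -2.27 ± 0.47 (adjusted p = 0.0232) and -1.87 ± 0.40 (adjusted p = 0.00612). With a term for sex they were -0.66 (adjusted p = 0.663) and -2.63 (adjusted p = 0.000818). Of its 31-base words, 27.3% occur in another gene, so reads could have been exchanged with its paralogs.

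**Figure D3:**
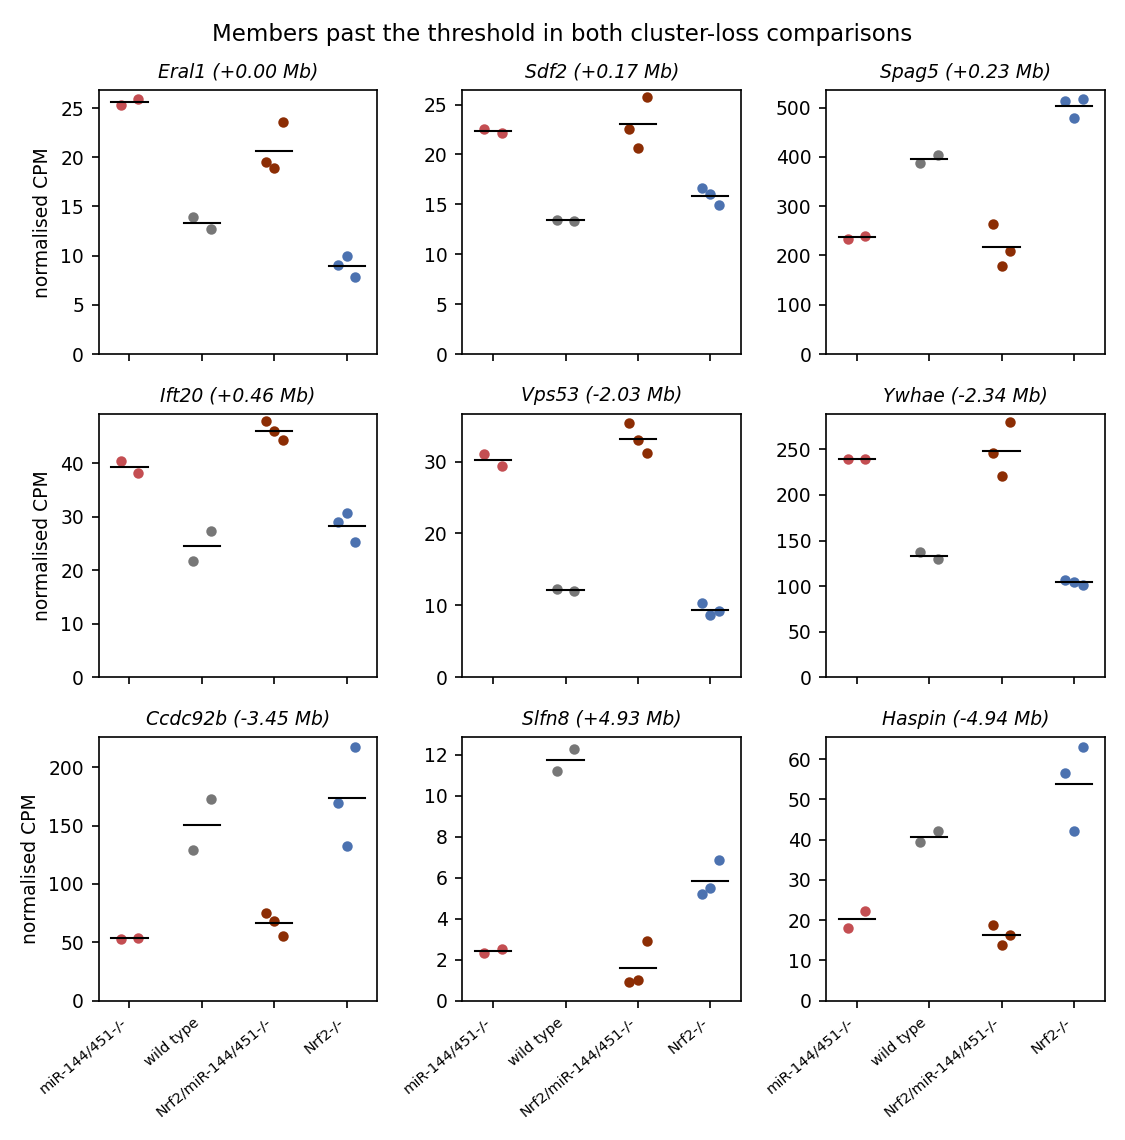
Normalised CPM (y axis, from 0) of each library for the 9 neighbours past the threshold with the same sign in both comparisons of cluster loss, with miR-144/451-/- (n = 2), wild type (n = 2), Nrf2/miR-144/451-/- (n = 3) and Nrf2-/- (n = 3) from left to right. Points are libraries and bars are group means. In each panel the cluster-null points all lie on one side of the cluster-intact points, higher for Eral1, Sdf2, Ift20, Vps53 and Ywhae and lower for Spag5, Ccdc92b, Slfn8 and Haspin.

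Further neighbours named here changed in Nrf2/miR-144/451-/- against Nrf2-/- without passing in the other comparison. Rph3al, a Rab effector of exocytosis 2.24 Mb away, rose by a log2 fold change of 2.84 ± 0.34 (adjusted p = 0.000484). Its levels were 129, 121 and 177 CPM in Nrf2/miR-144/451-/-, against 21.1, 22.9 and 15.7 CPM in Nrf2-/-. In miR-144/451-/- it had 55.7 and 46.0 CPM, against 11.4 and 31.8 CPM in wild type, where the change of 1.25 ± 0.40 did not pass (adjusted p = 0.129). Its 5 cluster-null libraries were all above the 5 cluster-intact ones.

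Ksr1, a scaffold of the Raf, MEK and ERK kinases, rose by 1.69 ± 0.27 in Nrf2/miR-144/451-/- against Nrf2-/- (adjusted p = 0.00147). It had 31.9, 35.9 and 28.0 CPM in Nrf2/miR-144/451-/-, against 13.2, 10.1 and 6.35 CPM in Nrf2-/-. The groups overlapped with Nrf2 present, at 44.8 and 35.1 CPM in miR-144/451-/-, against 24.0 and 40.8 CPM in wild type. Unc119, a lipid-binding chaperone of membrane proteins, rose by 1.37 ± 0.24 (adjusted p = 0.002). Mir22hg, the host transcript of miR-22, rose by 1.28 ± 0.24 (adjusted p = 0.0028), and it overlaps Tlcd2, whose change was 0.98 ± 0.25 (adjusted p = 0.0142). Serpinf2, which encodes alpha-2-antiplasmin, fell by 1.51 on the log2 scale (adjusted p = 0.017) at levels of 0.966 to 1.52 CPM in Nrf2/miR-144/451-/-, against 2.45 to 4.37 CPM in Nrf2-/-.

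Nf1, a Ras GTPase-activating tumour suppressor 1.27 Mb away, had 19.4, 14 and 18.9 CPM in Nrf2/miR-144/451-/-, against 11.9, 9.10 and 10.4 CPM in Nrf2-/-, and rose by 0.73 ± 0.21 (adjusted p = 0.0271). Its levels of 19.4 and 17.3 CPM in miR-144/451-/- and 10.6 and 16.6 CPM in wild type gave 0.44 ± 0.26 (adjusted p = 0.425). Suz12, a core subunit of Polycomb repressive complex 2, had 197, 149 and 195 CPM in Nrf2/miR-144/451-/-, against 276, 217 and 316 CPM in Nrf2-/-. Its change was -0.58 ± 0.16 (adjusted p = 0.0228). In miR-144/451-/- Suz12 had 197 and 173 CPM, against 237 and 259 CPM in wild type, a change of -0.42 ± 0.20 that did not pass (adjusted p = 0.287). All 5 cluster-null libraries were below the 5 cluster-intact ones for Suz12, while for Nf1 they overlapped.

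The outermost band at higher coordinates holds the Schlafen genes, a family of growth-regulating and interferon-induced genes whose close copies can exchange reads. Of its 9 members among the neighbours, 4 fell and 0 rose in the averaged comparison (44.4%, beside 29.2% of all genes, 15% higher and 14.2% lower), with a median log2 fold change of -0.55 over the 9 against 0.02 over all genes. Those that fell were Slfn5, Slfn8, Slfn9 and Slfn14. Slfn5 fell by 1.61 averaged (adjusted p = 0.00815), a call lost with a term for sex. It had 0.372, 1.98 and 1.95 CPM in Nrf2/miR-144/451-/-, against 4.37, 4.29 and 7.80 CPM in Nrf2-/-, and 3.58 and 5.34 CPM in miR-144/451-/-, against 10.1 and 11.8 CPM in wild type.

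Slfn9 had 13.2, 13.4 and 25.7 CPM in Nrf2/miR-144/451-/-, against 67.6, 52.4 and 68.7 CPM in Nrf2-/-. In miR-144/451-/- it had 16.9 and 17.0 CPM, against 23.8 and 21.4 CPM in wild type. The Nrf2-/- libraries thus stood above the other 3 groups. The change of -1.85 ± 0.24 with Nrf2 absent passed (adjusted p = 0.000458) and that of -0.42 ± 0.29 with Nrf2 present did not (adjusted p = 0.512). Slfn9 shares 24.6% and Slfn5 12.9% of its 31-base words with other genes, while Slfn14 shares 0.11%. Schlafen genes are also expressed in lymphocytes and macrophages. Beside the B cell markers given above, the summed level of 10 macrophage markers was 83.0 to 378 CPM in Nrf2/miR-144/451-/- against 330 to 1086 CPM in Nrf2-/-. It was 147 to 271 CPM in miR-144/451-/- against 191 to 199 CPM in wild type. The summed level of 8 T cell markers was 13.7 to 54.0 CPM in Nrf2/miR-144/451-/- against 58.1 to 74.5 CPM in Nrf2-/-, and 29.8 to 50.3 CPM in miR-144/451-/- against 58.6 to 87.8 CPM in wild type. The T cell sums did not overlap in either pair, and 1 of the 8 fell with Nrf2 absent and 0 with Nrf2 present. The summed level of 9 neutrophil markers was 1132 to 1269 CPM in Nrf2/miR-144/451-/- against 177 to 1212 CPM in Nrf2-/-. It was 374 to 1029 CPM in miR-144/451-/- against 446 to 505 CPM in wild type. Their median log2 fold changes were 0.80 with Nrf2 absent and 0.55 with Nrf2 present, and 0 of the 9 passed in either pair. No marker of these lists was at 0 in all libraries, and the part of these cells in the differences was not tested.

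By role, the neighbours were sorted into 4 lists from textbook knowledge, with 40 left in none. The list of trafficking and motors is a broad one that also holds Spag5, of the mitotic spindle. Of its 19 genes, 8 rose and 5 fell in the averaged comparison, 68.4% beside 29.2% of all tested genes. Their median log2 fold change was 0.09. The risers included Vps53, Ift20 and Rhot1, which moves mitochondria along microtubules (0.62 ± 0.12, adjusted p = 0.00378). The fallers included Spag5 and Myo1c, an unconventional myosin, whose change was -0.76 ± 0.12 (adjusted p = 0.000967). The members moved in both directions, and the list was put together with earlier results of these data known.

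Of 19 signalling genes, 5 rose and 2 fell, 36.8% beside 29.2% of all tested genes, 15% higher and 14.2% lower. They included Ywhae, Ksr1, Traf4 and Inpp5k, an inositol phosphatase that rose by 0.46 ± 0.09 (adjusted p = 0.00456). Of 22 genes of transcription, RNA and DNA, 5 rose and 3 fell (36.4%). Among them were Utp6, of the ribosomal RNA processome (0.81 ± 0.16, adjusted p = 0.00291), the elongation factor Supt6 (0.43 ± 0.08, adjusted p = 0.003) and the DNA ligase Lig3 (0.71 ± 0.17, adjusted p = 0.00891). Of 20 enzymes and transporters, 4 rose and 1 fell (25%). The shares of these last 3 lists lay near the 29.2% of all genes. The risers were Sdf2, Tlcd2 (0.97 ± 0.20, adjusted p = 0.00378), the cysteine protease Blmh (0.61 ± 0.13, adjusted p = 0.00576) and Pigs, a subunit that attaches GPI anchors (0.41 ± 0.11, adjusted p = 0.0176). The call of Pigs was lost without miR-144/451-/- replicate 3 or wild-type replicate 3.

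Seed matches to miR-144-3p and miR-451a were counted in the neighbours and in all tested genes. A 7-base match to the miR-144-3p seed (ATACTGT on the sense strand) was present in the longest 3' UTR of 16 of the 110 neighbours with an annotated one, 14.5%, against 13.8% of all tested genes. Among neighbours that rose in the averaged comparison 2 of 24 had one (8.33%), against 19.0% of all genes that rose. Among those that fell 2 of 19 had one (10.5%), against 12.9% of all genes that fell. The 7-base match to miR-451a (AACGGTT) was present in 1 neighbour, Slc43a2 (0.909%, against 2.22% of all tested genes). None of the 9 neighbours called in both comparisons, Eral1 included, held either match.

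The sites in the 4 neighbours that passed the averaged comparison are shown with 14 bases before the match and 1 after, the match in capitals.
Cpd, higher: tgccctgtgatggcATACTGTc
Ksr1, higher: atgaaggatgacagATACTGTg
Ssh2, lower: tgtaaaatgaatacATACTGTg
Slfn5, lower: cagatattagcaaaATACTGTa
Cpd encodes carboxypeptidase D, a protease of the trans-Golgi network, and Ssh2 a phosphatase that activates cofilin. Cpd rose by 0.94 ± 0.18 (adjusted p = 0.00318) and Ssh2 changed by -0.63 ± 0.16 (adjusted p = 0.0143). A match is a description of the letters and not a site shown to be used.

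The comparison of Nrf2-/- with wild type served as a view of the same genes with the cluster intact in both groups. Of the 120 neighbours 1 passed (0.833%), beside 0.191% of all genes, and it rose, as did 0.128% of all genes. The median log2 fold change was -0.09 over the neighbours and -0.02 over all genes. In Nrf2/miR-144/451-/- against miR-144/451-/-, where the cluster is deleted in both groups, edgeR called 0 neighbours, beside 0.0638% of all genes, 0.0496% higher and 0.0142% lower. At an unadjusted p under 0.05 there were 8 neighbours and 10.7% of all genes. DESeq2 called 2 neighbours, and its share of all genes is not given here.

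The gene that passed in Nrf2-/- against wild type was AA465934, a noncoding transcript and the outermost member, 5.22 Mb from Mir144, which overlaps Snord7. It had 20.5 and 17.7 CPM in miR-144/451-/-, 17.9, 17.2 and 21.3 CPM in Nrf2/miR-144/451-/- and 14.9, 21.2 and 14.4 CPM in Nrf2-/-, against 2.73 and 3.18 CPM in wild type. All 8 mutant libraries thus lay above the 2 wild-type ones, whether or not they carried the cluster. The log2 fold change was 2.69 ± 0.26 in miR-144/451-/- against wild type (adjusted p = 0.00151) and 2.51 ± 0.25 in Nrf2-/- against wild type (adjusted p = 0.00114). These comparisons share the wild-type libraries. In Nrf2/miR-144/451-/- against Nrf2-/- it was 0.16 ± 0.19 (adjusted p = 0.566). Both wild-type libraries were female, as was Nrf2/miR-144/451-/- replicate 3, which had 21.3 CPM. In a fit with a term for sex the call in miR-144/451-/- against wild type was lost (2.98, adjusted p = 0.0603) and that in Nrf2-/- against wild type held (2.79, adjusted p = 0.0249), with 2 neighbours called in all in the second of these. AA465934 was also the single neighbour called in the interaction of cluster loss and Nrf2 loss, where it was lower, beside 0.0638% of all genes, 0.0283% higher and 0.0354% lower. That call was lost without either wild-type library, without miR-144/451-/- replicate 1 and without Nrf2/miR-144/451-/- replicate 1, and 2 neighbours were called without Nrf2/miR-144/451-/- replicate 3. The count in Nrf2-/- against wild type was also 2 without Nrf2/miR-144/451-/- replicate 3, Nrf2-/- replicate 1 or 3, or wild-type replicate 1.

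Of the 27 genes called in Nrf2-/- against wild type across the genome, 6 lay on chromosome 11, which held 8% of tested genes. Beside AA465934 these were Pttg1, Ublcp1, Igtp, Irgm2 and Myo15, between 17.6 and 34.7 Mb from Mir144 and outside the window. Myo15 had 29.3 and 29.6 CPM in miR-144/451-/-, 95.6, 91 and 37.3 CPM in Nrf2/miR-144/451-/- and 57.7, 54.0 and 75.9 CPM in Nrf2-/-, against 3.88 and 2.36 CPM in wild type. Its wild-type libraries were the lowest, as for AA465934.

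**Figure D4:**
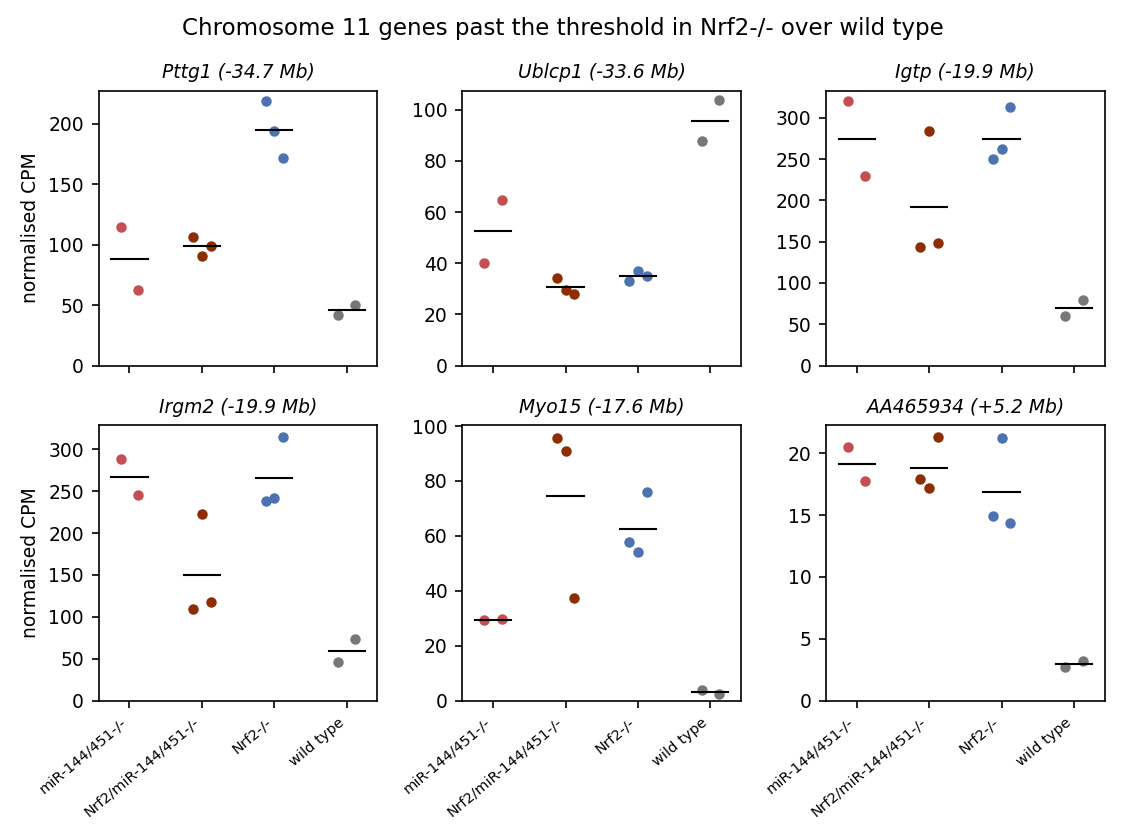
Normalised CPM (y axis, from 0) of each library for the 6 chromosome 11 genes past the threshold in Nrf2-/- over wild type, with miR-144/451-/- (n = 2), Nrf2/miR-144/451-/- (n = 3), Nrf2-/- (n = 3) and wild type (n = 2) from left to right. Points are libraries, bars are group means, and titles give the distance from Mir144. The wild-type points are the highest for Ublcp1 and the lowest in the other 5 panels, and AA465934 is the single gene of the 6 within the window around Mir144.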

How the data were processed

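The authors deposited raw counts per Ensembl gene and, per library, FPKM values. Per the submitters' processing notes the build was mm9 and the tools were TopHat2, HISAT2 2.1.0, Bowtie2 2.2.3 and CASAVA, with no role named. Which program counted the reads, on which annotation and with what strand setting, is not given in the sources used here. Every deposited FPKM compared equalled count over length over library total to within 0.1%, so all tests used the counts, and FPKM served for levels between genes. Symbols and distances came from GENCODE M21, a later build than mm9, through identifiers (99.6% matched). Members and lists were chosen with earlier results of these data known.

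All 10 libraries entered 1 fit in R 4.3.3 with edgeR 4.0.16 (TMM factors, filterByExpr, robust quasi-likelihood test, two-sided, 1 coefficient per genotype, 6 residual degrees of freedom), and p-values were adjusted by Benjamini-Hochberg over 14110 genes. Alternatives were RLE or no factors, DESeq2 1.42.0, no filter, only the groups compared, a replicate block, a term for sex, globin genes removed and each library left out. Named were Mir144, the 5 nearest members a side, those called in both cluster-loss comparisons or in the interaction, the 5 largest per direction and comparison and 4 per role list; other names were chosen after their values were seen. Replicates differed beyond sampling noise (chi-square per degree of freedom 17.3 to 30.4). The fit was checked on simulated counts.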

Additional observations from a re-analysis of the deposited data

Results flagged for a closer look

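AA465934 was the single neighbour whose change on cluster loss differed between the Nrf2 states, by the interaction term of the edgeR fit. The difference was -2.53 on the log2 scale (adjusted p = 0.0179), from a change of 0.16 in Nrf2/miR-144/451-/- against Nrf2-/- and 2.69 in miR-144/451-/- against wild type. Its call was lost with a replicate block (adjusted p = 0.0615), with a term for sex (0.287) and without wild-type replicate 1 (0.158), wild-type replicate 3 (0.135), miR-144/451-/- replicate 1 (0.0863) or Nrf2/miR-144/451-/- replicate 1 (0.0501). The difference itself lay between -2.34 and -2.66 when single libraries were left out. Across all genes 0.0638% were called in the interaction.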

How the results depend on the processing

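Counts of neighbours called in Nrf2/miR-144/451-/- against Nrf2-/- (42) and averaged (46) stayed within 1.5 times under every alternative, at 34 to 43 and 36 to 46, and at 28 to 43 and 36 to 45 without single libraries. The other counts moved. In miR-144/451-/- against wild type (10) they were 16 with no filter on low counts, 5 with only the groups compared and 0 with a term for sex, and 2 to 12 without single libraries. In both comparisons (9) they were 14, 4 and 0, and 1 to 10. In Nrf2-/- against wild type (1) they were 2 with no scaling, 4 with DESeq2, 8 with no filter, 2 with only the groups compared and 2 with a term for sex, and 1 to 2 without single libraries. In Nrf2/miR-144/451-/- against miR-144/451-/- (0) they were 2 with DESeq2, 5 with no filter and 0 without any single library. In the interaction (1) they were 4 with no filter and 0 with a term for sex, and 0 to 2 without single libraries. For the alternatives, the counts in this section are given without the share of all genes called in the same refit. Whether the neighbours moved more than genes in general was not tested. The 60 nearest genes had 0% called in Nrf2-/- against wild type and in the interaction.

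For the 30 nearest neighbours, alternatives chosen after seeing the data gave, in miR-144/451-/- against wild type (4), 2 with RLE factors, 0 with only the groups compared, 0 with a term for sex and 0 to 5 without single libraries. In Nrf2/miR-144/451-/- against Nrf2-/- (15) they gave 8 to 15 without single libraries.

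The labels do not say what a replicate number shares, so the numbers were not taken as pairs. Deviations of same-numbered libraries from their group means had correlations of -0.13 to 0.33, with 1 of 13 pairs over 0.1. In groups of 2 libraries these deviations mirror each other, so the 13 pairs are not separate checks. With a replicate block 6 neighbours were called in miR-144/451-/- against wild type, 5 in both, 0 in the interaction and 0 of the 30 nearest in miR-144/451-/- against wild type.

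In the averaged comparison, 563 of the refitted log2 fold changes of named neighbours kept their direction and side of the threshold, 15 lost the threshold and 0 reversed. For the 9 neighbours called in both comparisons, 57 of 135 refits lost the call in miR-144/451-/- against wild type, against 2 of 135 in Nrf2/miR-144/451-/- against Nrf2-/-, with no change of sign. Without scaling the median of all genes moved by 0.12 in miR-144/451-/- against wild type, -0.10 in Nrf2-/- against wild type, -0.21 in Nrf2/miR-144/451-/- against miR-144/451-/- and -0.11 in the interaction. With 2 or 3 libraries a group, genes short of the threshold are not shown to be unaffected. Where 1 library was left of a group of 2, it was assumed to vary like the other groups. The cause of these movements was not tested.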
